A study of Rattus norvegicus with 3 samples.

Results

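The glucose transporter genes were followed as the rows of the deposited expression table whose symbols are Slc2a1, Slc2a2, Slc2a3, Slc2a4, Slc2a5, Slc2a8, Slc2a10, Slc2a12 and Slc2a13. All 9 were found among the 18425 genes listed. The genes were chosen by family and not by a rule on their values, with earlier results of these data known. RNA came from retinas of wild-type Sprague Dawley rats at P4 (postnatal day 4). The eyes had received 1 µl of citrate buffer (pH 4.5), 1 µl of saline or 1 µl with 10 µg of streptozotocin (STZ) into the vitreous at P1. STZ had been dissolved in citrate buffer, so the buffer library carries its vehicle and the saline library shows what another injected fluid gives. For eye injections at P1, the paper describes STZ in right eyes and citrate buffer in the fellow left eyes. Whether the sequenced STZ and buffer retinas were paired in this way is not stated. There was 1 library per treatment, and the labels do not say how many animals or retinas entered it. Differences between libraries therefore have no replicate check, and no p-value was computed.

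The Slc2a genes encode the GLUT proteins, which carry glucose or related sugars across membranes down their concentration gradient. GLUT1 (Slc2a1) supplies glucose across the blood-retinal barrier, through endothelium and pigment epithelium, and feeds most retinal cells. GLUT2 (Slc2a2) is the low-affinity carrier of beta cells, liver and kidney, and STZ, an alkylating nitrosourea joined to a sugar, enters beta cells through it. GLUT3 is the neuronal carrier, GLUT4 the insulin-responsive carrier of muscle and fat, and GLUT5 a fructose carrier that in the brain is found in microglia. The remaining members belong to a more distant branch, with GLUT8 inside cells and Slc2a13 encoding the proton-coupled myo-inositol carrier HMIT.

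Each library held about the same number of estimated reads, 21992702 in buffer, 21977843 in saline and 22031249 in STZ. Where 3 values stand in a row they are in that order. Levels are given as FPKM (fragments scaled to transcript length and to the library), which allows genes of different length to be compared. The fold of a gene was (FPKM + 1)/(FPKM + 1), as in the methods of the study, and a gene passed the study's thresholds when its log2 fold was above 0.62 or below -0.62. Beside it stands the count ratio, which divides the gene's share of one library's reads by its share of the other's and has an exact Clopper-Pearson 95% interval. The intervals cover counting error only, and they compare libraries, not treatments. Reads without molecular identifiers can come from 1 molecule, so the intervals may be too narrow even for that error. All 12 retina markers were well above the detection limit in every library, the lowest being Hes1 with 443 reads in STZ. The libraries differed in markers of other tissues. The 15 lens markers together had 340 reads in buffer but 793 in saline and 3813 in STZ. They did not move alike. The crystallins Cryaa and Cryba1 had 55, 211 and 928 and 22, 62 and 731 reads. Mip, named after its values were seen, had 73, 73 and 86. The 9 ciliary and iris epithelium markers had 9699, 16016 and 10211 reads. Mab21l1 gave most of these in buffer and STZ, with 7333, 7505 and 7912, while Aldh1a1 had 1904, 6838 and 1904. In bulk RNA, fewer cells of a type and less RNA per cell cannot be told apart.

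By level, Slc2a1 stood far above the rest of the family. Buffer gave it an FPKM of 202.7, saline 182.3 and STZ 139.4, higher than that of 98.1%, 98.0% and 96.9% of all genes. Slc2a8 came next with an FPKM of 17.6, 17.5 and 16.4, followed by Slc2a10 with 3.08, 3.24 and 3.51. These first 3 places were the same in each library, and the 95% Poisson intervals of neighbours did not overlap. The lower places changed. In buffer the order went on with Slc2a13, Slc2a12, Slc2a5, Slc2a3, Slc2a4 and Slc2a2. In STZ, Slc2a5 moved up to the fourth place, although its interval (1.78 to 2.69 FPKM) overlapped that of Slc2a13 below it (1.46 to 1.91). In buffer, Slc2a13 could not be told from Slc2a12, Slc2a5 from Slc2a3, Slc2a3 from Slc2a4, or Slc2a4 from Slc2a2 by their intervals. In saline, Slc2a12 stood above Slc2a13 and Slc2a3 above Slc2a5, with overlapping intervals. The last place went to Slc2a2 in all 3 libraries, with its interval overlapping that of Slc2a4 each time.

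**Figure D1:**
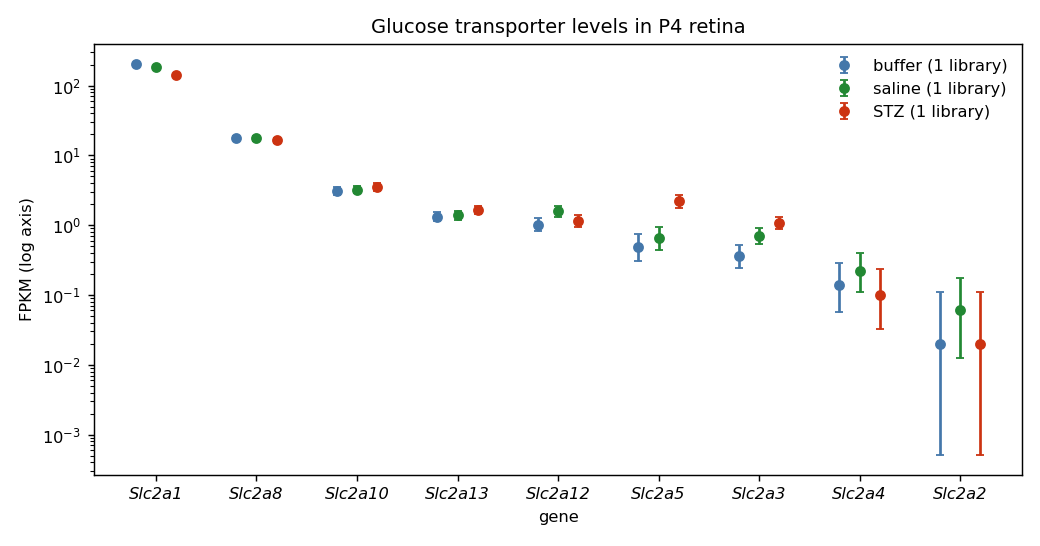
FPKM (log axis) of the 9 glucose transporter genes in the buffer, saline and STZ libraries, 1 library each. Bars are exact 95% Poisson intervals of the read count, scaled to FPKM. Slc2a1 lies between 139.4 and 202.7 FPKM, above every other member, and Slc2a2 lies at 0.02 to 0.06.

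Against the whole table, few members passed the fold thresholds. In STZ against buffer 1 of 9 passed, Slc2a5, which was higher, where 3.29% of all genes passed, 2.25% above and 1.04% below. In STZ against saline it was again 1 of 9, Slc2a5, against 3.78% of all genes (2.04% above and 1.75% below). Between saline and buffer 0 of 9 passed, against 1.43% of all genes (1.0% above and 0.429% below). The median log2 fold over the 8 members other than Slc2a2 was 0.11 for STZ over buffer, 0.00 for STZ over saline and 0.08 for saline over buffer, beside 0.02, 0.00 and 0.01 over all genes. By the looser rule that the counting interval excludes 1, 4 of 9 differed between STZ and buffer, 4 between STZ and saline and 3 between the controls. That rule was met by 37.2%, 41.6% and 23.1% of all genes, so these shares lie near the background. The comparisons share libraries, and their results are not independent of each other.

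**Figure D2:**
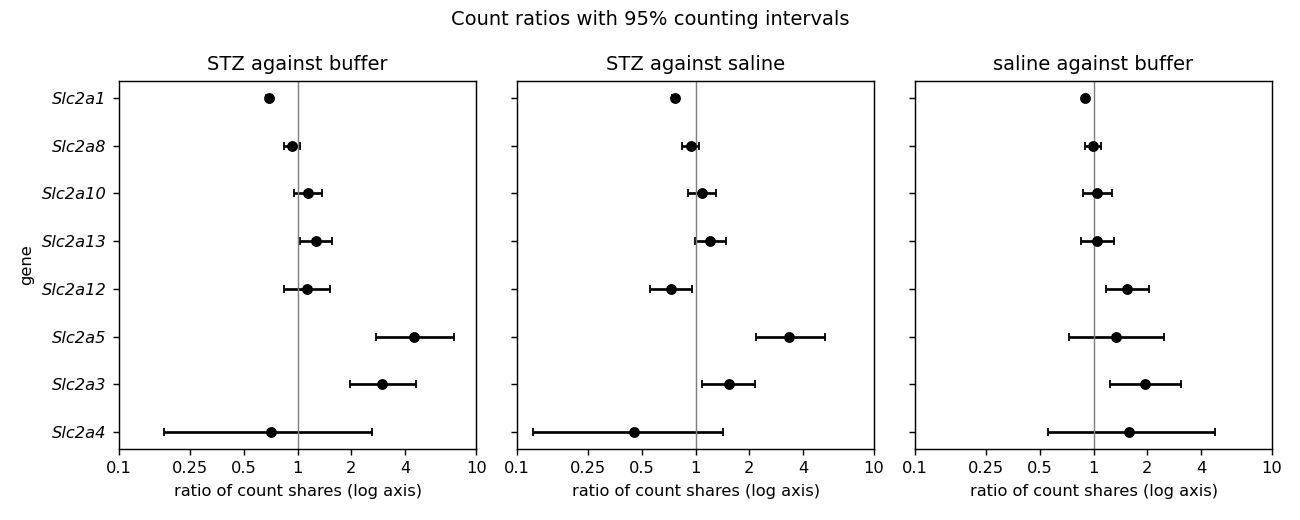
Ratio of count shares (log axis) of 8 glucose transporter genes with exact 95% counting intervals. The panels compare STZ with buffer, STZ with saline and saline with buffer. Slc2a2 is left out because it had 3 reads or fewer in every library. In STZ over buffer Slc2a1 lies at 0.688 and Slc2a5 at 4.47, with intervals clear of 1.

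Slc2a1 was the member with the largest difference in reads, and it was lower in STZ. It had 10438, 9378 and 7196 reads. The STZ library was the lowest, and the saline library lay between it and buffer. The count ratio was 0.688 in STZ against buffer (95% counting interval 0.668 to 0.709) and 0.765 against saline (0.742 to 0.789). The controls also differed from each other, with a ratio of 0.899 in saline against buffer (0.874 to 0.925). The folds were 0.69 and 0.766, so Slc2a1 did not pass the lower threshold against either control. Of the 5679 genes that averaged 1000 reads or more, 71 (1.25%) had a ratio in STZ against buffer as low as that of Slc2a1. In saline against buffer 8 of these genes (0.141%) were that low.

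The promoter window of Slc2a1 is shown because this gene dominates the family's RNA. It runs from 250 bases before to 50 bases after the annotated start, as given by RefSeq for the assembly GRCr8. Capitals mark matches, on either strand, to 4 motifs. They are a TATA box (TATAAA), a GC box (GGGCGG), the core of the hypoxia response element (ACGTG) and a PU.1 motif (GAGGAA).
Slc2a1, chr5:138002272-138002571, plus strand: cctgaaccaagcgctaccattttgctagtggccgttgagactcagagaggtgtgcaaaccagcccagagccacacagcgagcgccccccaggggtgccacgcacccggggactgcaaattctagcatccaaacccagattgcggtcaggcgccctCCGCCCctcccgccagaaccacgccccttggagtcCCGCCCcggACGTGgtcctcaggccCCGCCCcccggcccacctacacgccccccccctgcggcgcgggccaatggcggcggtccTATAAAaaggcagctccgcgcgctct
The window held 68.3% G and C bases and 25 CpG dinucleotides, against medians of 51.7% and 7 over 33469 rat promoters of the same length. It had 3 GC boxes, 1 ACGTG and 1 TATAAA, and 0 GAGGAA. Of all promoters, 33.1% held a GC box, 19.3% an ACGTG, 14.2% a TATAAA and 27.6% a GAGGAA. A match is a run of letters, not a shown binding site. The ACGTG began 51 bases before the annotated start and the TATAAA at base 25 after it. Hif1a, the factor known to bind ACGTG in hypoxia, had 13348, 13773 and 14329 reads and a ratio of 1.07 against buffer (1.05 to 1.1). These are RNA levels, and the part of Hif1a in the Slc2a1 values was not tested.

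Endothelial markers were lower in the STZ library together with Slc2a1. Of the 14 listed markers 13 were in the table, none at 0 in all libraries, and all 13 had a ratio under 1 against both controls, with 4 folds below the lower threshold in each. Their ratios against buffer ran from 0.196 to 0.834. All 13 together had 14607, 15904 and 10757 reads, most of them from Kdr, a VEGF receptor that retinal progenitors also express, with 13149, 14564 and 9972 reads. The ratio of this sum in STZ against buffer was 0.735 (0.717 to 0.754), an interval above that of Slc2a1. Without the receptors Kdr and Flt1, set aside after their values were seen, the other 11 summed to 868, 830 and 292 reads, a ratio of 0.336 against buffer (0.293 to 0.384). Cldn5, which encodes the tight junction protein claudin-5 and was also picked after its values were seen, had 188, 154 and 37 reads. The sums of the 11 markers in saline and buffer could not be told apart by counting, at a ratio of 0.957 (0.869 to 1.05). The reads of Slc2a1 per read of these 11 markers were 12.03, 11.3 and 24.6. Against buffer, the interval of the Slc2a1 ratio thus lay below that of all 13 markers and above that of the 11. Against saline it lay above both, at 0.742 to 0.789. There the interval was 0.658 to 0.691 for the 13 markers and 0.306 to 0.402 for the 11. The order thus depends on the control and, against buffer, on whether Kdr and Flt1 are counted. The part of the endothelium in the lower Slc2a1 was not tested.

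Glial and pigment epithelium genes moved differently. Of 8 Müller glia markers, some of which progenitors share, 5 had a ratio under 1 in STZ against buffer and 3 had one over 1, from 0.616 for Sox9 to 1.99 for Clu, named as the ends of the range. Their reads summed to 76584, 78717 and 64555, a ratio of 0.841 against buffer (0.833 to 0.85), and the most abundant was Dkk3 with 52915, 54670 and 42238 reads. The 11 pigment epithelium markers other than Rlbp1, which Müller glia also express, summed to 1069, 2178 and 1118 reads. The ratio of this sum was 2.04 in saline against buffer (1.89 to 2.2) and 1.04 in STZ against buffer (0.959 to 1.14). The list did not move as one. Its melanin genes, Pmel, Dct, Tyrp1, Tyr and Mlana, were higher in saline than in buffer, while Ttr, which encodes the carrier transthyretin, had a ratio of 0.835 (0.729 to 0.956) and Rlbp1 one of 0.94 (0.909 to 0.972). These genes were named after their values were seen. The part of pigment epithelium in the Slc2a1 values was not tested.

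**Figure D3:**
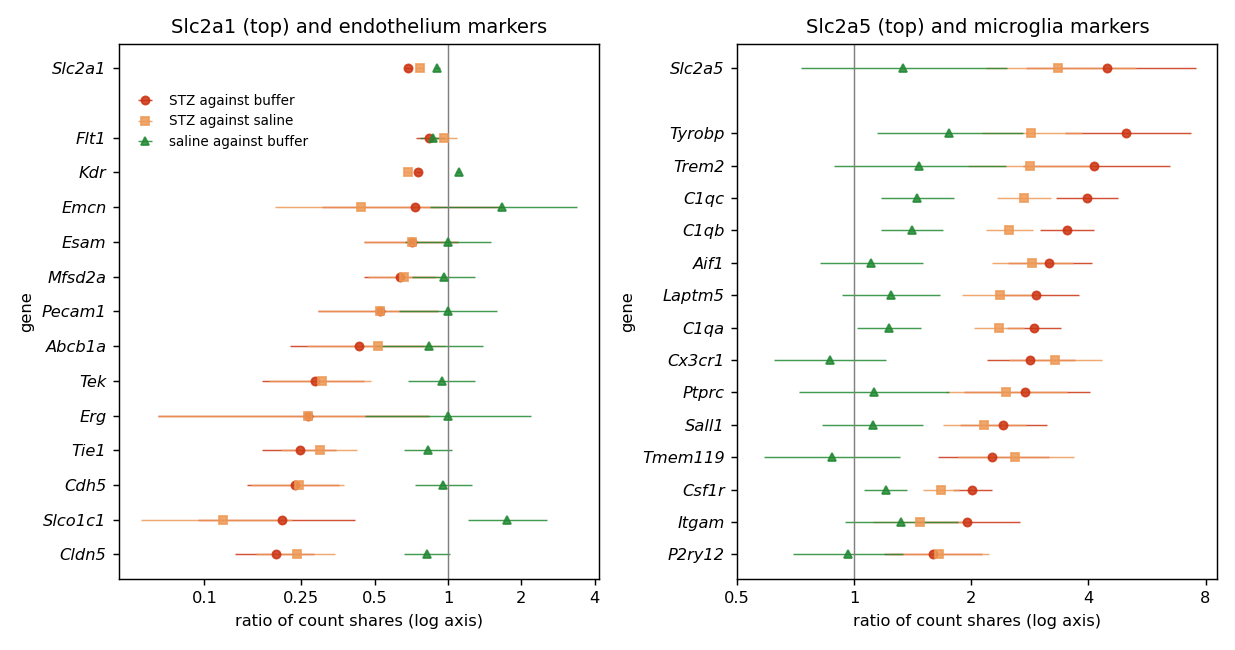
Ratio of count shares (log axis) with exact 95% counting intervals for Slc2a1 above 13 endothelium markers (left) and Slc2a5 above 14 microglia markers (right), in 3 comparisons. In STZ against buffer the endothelium markers lie between 0.196 and 0.834 with Slc2a1 at 0.688, and the microglia markers between 1.59 and 4.99 with Slc2a5 at 4.47.

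Slc2a2, the carrier by which STZ enters beta cells, was at the detection limit. It had 1, 3 and 1 reads. The upper 95% Poisson limits were 0.111 FPKM in buffer, 0.175 in saline and 0.111 in STZ. They bound how high the level could be, for counting error only, and a low level below them remains possible. No fold is given, because folds and ratios were left out where both libraries compared had 3 reads or fewer. The value describes whole retina at P4, 3 days after the injection, and not the cells that were exposed at P1. The insulin genes were near the floor as well. Ins1 had 1, 5 and 0 reads and Ins2 had 1, 1 and 0, while Mafa, a transcription factor of beta cells, had 18, 17 and 25. Pcsk1, which neurons also express, made up most of the 417, 345 and 521 reads of the 6 beta cell markers found of 9. The promoter of Slc2a2 is shown for contrast with that of Slc2a1, with capitals as before.
Slc2a2, chr2:113540120-113540419, plus strand: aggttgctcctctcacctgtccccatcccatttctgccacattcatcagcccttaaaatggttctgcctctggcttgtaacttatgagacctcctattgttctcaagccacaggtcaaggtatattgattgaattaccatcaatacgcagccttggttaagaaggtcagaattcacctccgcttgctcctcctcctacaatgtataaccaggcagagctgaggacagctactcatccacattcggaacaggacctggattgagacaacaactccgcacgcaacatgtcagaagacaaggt
This window held 47.7% G and C bases and 5 CpG dinucleotides and matched 0 of the 4 motifs.

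Slc2a5 had the largest ratio in STZ against buffer of the 7 members that averaged 10 reads or more. It had 21 reads in buffer, 28 in saline and 94 in STZ, at 0.49, 0.66 and 2.2 FPKM. The controls lay close together and the STZ library well above both. The fold was 2.15 against buffer and 1.93 against saline, and the count ratios were 4.47 (2.76 to 7.55) and 3.35 (2.18 to 5.31). Between the controls the ratio was 1.33 (0.731 to 2.47), within the counting error. Of the 2248 genes with a mean between 20 and 100 reads, 67 (2.98%) had a ratio at least as high in STZ against buffer, and 35 (1.56%) had one that high between saline and buffer. The folds stand below the ratios because the added 1 FPKM weighs heavily at this level.

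Microglia markers were higher in the same library. All 14 had a ratio over 1 against both controls, 11 passed the upper threshold in each comparison, and none was at 0. Against buffer their ratios ran from 1.59 to 4.99 with a median of 2.86, so the 4.47 of Slc2a5 lay inside their range. Against saline they ran from 1.48 to 3.27, and the 3.35 of Slc2a5 lay just above, with an interval that reached well into that range. The marker reads summed to 1663, 2036 and 4591. The largest numbers were those of Csf1r, the receptor that keeps microglia alive, at 449, 540 and 905, and of C1qb, a complement subunit, at 205, 288 and 722. Slc2a5 had 1.26, 1.38 and 2.05 reads for each 100 microglia marker reads. The part of microglia in the higher Slc2a5 was not tested. Its promoter window, shown as that of the member past the thresholds, is as follows.
Slc2a5, chr5:165865929-165866228, plus strand: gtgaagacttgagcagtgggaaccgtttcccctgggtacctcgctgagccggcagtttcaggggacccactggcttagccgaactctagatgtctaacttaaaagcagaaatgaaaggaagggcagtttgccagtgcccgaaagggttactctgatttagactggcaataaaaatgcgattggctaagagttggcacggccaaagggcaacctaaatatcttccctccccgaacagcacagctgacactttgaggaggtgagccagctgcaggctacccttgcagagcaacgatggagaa
It held 52.0% G and C bases and 9 CpG dinucleotides, and it had none of the 4 motifs, GAGGAA included. Other forms of the PU.1 motif were not searched for.

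Slc2a3 and Slc2a4, close relatives of Slc2a1, were both weak. Slc2a3 had an estimated 30.57 reads in buffer, 60.15 in saline and 91.54 in STZ, and was the only member with fractional counts, so its intervals leave out the error of the estimation. The 3 libraries were all apart, and saline exceeded buffer as STZ exceeded saline. The count ratio was 2.96 in STZ against buffer (1.95 to 4.61), 1.53 against saline (1.09 to 2.15) and 1.94 between the controls (1.24 to 3.09). With an FPKM of 0.36, 0.7 and 1.08, its log2 fold of 0.61 against buffer stood just short of 0.62. The 12 ganglion and amacrine cell markers, genes of neurons present at this age, summed to 23682, 22378 and 27903 reads, a ratio of 1.18 in STZ against buffer (1.16 to 1.2) and of 0.946 in saline against buffer (0.928 to 0.963). The 10 photoreceptor markers were ordered like the neuron markers, with 33422, 31064 and 42136 reads. The lens and microglia markers, whose sums are given above, were ordered as Slc2a3 was, lowest in buffer and highest in STZ. The part of any of these cells in the Slc2a3 values was not tested. Slc2a4 had 7, 11 and 5 reads, and its ratio of 0.713 in STZ against buffer had an interval of 0.178 to 2.61, so no difference was detectable at this depth. Skeletal muscle markers were at low level in all libraries, with 110, 127 and 114 reads over 10 genes.

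Slc2a8, which encodes an intracellular transporter, was the second most abundant member, and its intervals included 1 in all 3 comparisons. It had 713 reads in buffer, 707 in saline and 665 in STZ, and all 3 values lay close together. Its ratio was 0.931 in STZ against buffer (0.836 to 1.04), 0.938 against saline (0.843 to 1.04) and 0.992 between the controls (0.893 to 1.1). A drop of the size seen for Slc2a1 lies outside the first of these intervals, for these libraries and for counting error only. Slc2a10, known for arterial tortuosity when it is lost in people, had 237, 249 and 271 reads and a ratio of 1.14 in STZ against buffer (0.955 to 1.36). The pericyte and mural cell markers summed to 1357, 1243 and 1129 reads over 10 genes, with 7 of the 10 ratios under 1 in STZ against buffer, while Slc2a10 was not lower.

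Slc2a12 was the member for which the saline library stood apart. It had 87, 134 and 98 reads. The ratio was 1.5 in saline against buffer (1.17 to 2.04), 0.73 in STZ against saline (0.556 to 0.954) and 1.12 in STZ against buffer (0.834 to 1.52), and its folds of 1.27, 0.833 and 1.06 did not pass the thresholds. Some ciliary and pigment epithelium markers were high in the same library. Of the 9 ciliary and iris markers, 4 passed the upper threshold in saline against buffer and 5 the lower one in STZ against saline. Of the 12 pigment epithelium markers, the 5 melanin genes passed the upper threshold between the controls, and of the 8 that averaged 10 reads or more 3 had a ratio under 1. Erythroid markers were also highest there, with 500, 708 and 413 reads over 8 genes. The part of these tissues in the Slc2a12 value was not tested. Slc2a13, the inositol carrier, had 174, 182 and 221 reads, and its ratio of 1.27 in STZ against buffer (1.03 to 1.56) barely excluded 1, while the ratio against saline was 1.21 (0.991 to 1.48).

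Added up, the family had its lowest level in the STZ library, and the difference lay in Slc2a1. The 9 genes reached a summed FPKM of 226.7 in buffer, against 207.7 in saline and 165.5 in STZ. Without Slc2a1 the sums were 24.0, 25.3 and 26.1, in the reverse order. Slc2a1 held 89.4% of the summed FPKM in buffer, 87.8% in saline and 84.2% in STZ, while the share of Slc2a8 was 7.76%, 8.43% and 9.89%, and that of Slc2a5 was 0.216%, 0.318% and 1.33%. Slc2a2 held 0.00882%, 0.0289% and 0.0121%.

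**Figure D4:**
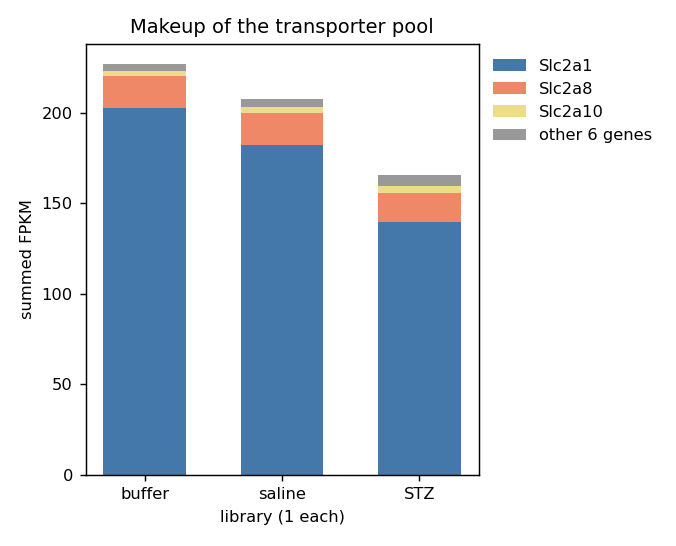
Summed FPKM of the 9 glucose transporter genes in each library (1 library per treatment), stacked by gene. The totals are 226.7, 207.7 and 165.5 for buffer, saline and STZ, and the blue part, Slc2a1, makes up 84.2% to 89.4% of it.

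Few other genes that move or trap sugars passed the fold thresholds, and with 1 FPKM added the folds of weak genes lie closer to 1 than their count ratios. Only 1.43% to 3.78% of all genes passed, depending on the comparison, so a count of 0 does not set a short list apart. Of the remaining facilitative carriers, Slc2a6 and Slc2a9 were in the table and 0 of 2 passed the thresholds in any comparison. Slc2a6, a lysosomal member, had an FPKM of 16.3, 15.6 and 13.1, below Slc2a8 in each library, with 858, 836 and 703 reads and a ratio of 0.818 in STZ against buffer (0.739 to 0.905). Slc2a9, a urate carrier, had 14, 10 and 21 reads. Of the sodium-coupled sugar and inositol carriers, 5 of 7 were found and 0 of 5 passed. Slc5a3, the sodium-coupled myo-inositol carrier, had the most reads of these, 27, 36 and 11, with a ratio of 0.407 in STZ against buffer (0.182 to 0.847) and 0.305 against saline (0.14 to 0.612). Slc5a2, the renal glucose carrier SGLT2, came next with 2, 2 and 12 reads and a ratio of 5.99 in STZ against buffer (1.33 to 55.1).

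Among the enzymes that phosphorylate or convert sugars after entry, 10 of 12 were in the table. In STZ against buffer 1 of the 10 passed the upper threshold and 0 the lower. In STZ against saline these numbers were 2 and 0, and between saline and buffer 0 and 1. The shares over all genes are those given with the carriers above. Of the 9 enzymes that averaged 10 reads or more, 6 had an interval above 1 in STZ against buffer and 0 one below 1. Over all genes, with no such filter, the interval excluded 1 for 37.2%, and abundant genes meet this rule at small differences. For these 9 the median log2 fold was 0.13, 0.21 and 0.02, beside 0.03, 0.01 and 0.02 over the whole table with the same filter. Hk3, the hexokinase of myeloid cells, passed against both controls. It had 3 reads in buffer, 3 in saline and 71 in STZ, a ratio of 23.6 against buffer with an interval of 7.76 to 117.3, and a fold of 2.05. Hk2, the inducible hexokinase and named here after its values were seen, had 1736, 1071 and 1928 reads. It was lowest in saline, with a fold of 0.626 against buffer, and its fold of 1.08 in STZ against buffer did not pass. Akr1b1, aldose reductase, and Hk1 had the most reads of the list, and their ratios against buffer were 1.11 (1.04 to 1.17) and 1.19 (1.13 to 1.26).

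The genes that control the transcription or traffic of glucose carriers gave no call. Among all genes, 3.29% passed for STZ over buffer, 3.78% for STZ over saline and 1.43% for saline over buffer. At such low shares, a count of 0 does not set a list of this length apart from the background. Of the 21 regulators listed, 19 were found and 0 of 19 passed in any of the 3 comparisons. Their median log2 fold was 0.11 in STZ against buffer, 0.06 against saline and 0.01 between the controls. These medians are over the 16 with a mean of at least 10 reads. Over all genes with the same filter they were 0.03, 0.01 and 0.02. Sort1, which sorts GLUT4 into its storage vesicles, had the most reads after Hif1a, 7333, 6916 and 6917. Txnip, which promotes the removal of GLUT1 from the cell surface, had 2360, 2401 and 2614 reads and a ratio of 1.11 in STZ against buffer (1.05 to 1.17). Lnpep, an aminopeptidase of GLUT4 vesicles, had 494, 388 and 229 reads and a ratio of 0.463 in STZ against buffer (0.394 to 0.542). Its fold of 0.65 (log2 -0.62) in that comparison lay on the lower threshold, which only folds below it passed. Txnip and Lnpep were named after their values were seen.

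The genes with the pattern most like Slc2a1 and Slc2a5 were sought in 12797 genes that averaged 50 reads or more and had at least 1 read in each library. Likeness was the distance between the log2 count ratios in saline against buffer and STZ against buffer, over 3 libraries only. Nearest to Slc2a1 were Xkr4, Sbk1 and Trove2, at distances of 0.015, 0.025 and 0.026, and 47 genes lay within 0.1. Xkr4 had 92, 82 and 63 reads, far fewer than Slc2a1. Nearest to Slc2a5 were Parvg, Fcrl2 and Cd33, at 0.057, 0.081 and 0.14, and 2 genes lay within 0.1. Parvg had 24, 31 and 110 reads, Fcrl2 had 135, 176 and 574, and Cd33 had 25, 31 and 105.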

How the data were processed

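Retinal RNA from 3 libraries, 1 per treatment, was sequenced after TruSeq preparation. Per the methods and the submitters' processing notes, the authors checked reads with FastQC, trimmed them, mapped them with TopHat2 to the rat genome (rn6) and discarded reads with several locations. The authors deposited FPKM from an R script, TPM and an estimated count per gene. The deposited estimated counts are fractional for 12.9% to 13.2% of genes, which touches Slc2a3 among the transporters, and they were rounded before intervals were computed. The joint table and the single-library tables were identical. Folds used FPKM with a pseudocount of 1 and thresholds 1.54 and 0.65 over all 18425 genes. Count ratios had exact Clopper-Pearson intervals and levels had exact Poisson intervals, at the 95% level, with a floor of 3 counts.

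The genes and 17 gene lists (4 of pathways, 13 of cell type markers) were chosen with earlier results of these data known. From each pathway list the genes past the thresholds against both controls, or the 2 with the most reads, were named. From the endothelium, microglia, lens and ciliary marker lists the 2 with the most reads were named, and from the Müller glia list the most abundant. The other marker lists are given as sums, or with genes named as their paragraphs state. The gene lists leave out 2 items that are not reported here. Exceptions are marked as picked after their values were seen. Libraries of 1 per group allow no edgeR or DESeq2 fit. edgeR 4.0.16 gave TMM factors (0.985 for buffer, 1.0 for saline and 1.01 for STZ) and DESeq2 1.42.0 gave size factors, in R 4.3.3, for alternative scalings. TPM and CPM from the counts were further alternatives. Python 3.11.15 with scipy 1.17.1 did the rest, and the calculations were tested on simulated data. Promoter windows (GRCr8, the BN strain, not the rn6 used for mapping) came from RefSeq and matched 6 of the 9 genes.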

Additional observations from a re-analysis of the deposited data

How the results depend on the processing

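With 1 library per treatment, no library could be left out of a comparison. The number of glucose transporter genes past the thresholds in STZ against buffer was 1. It became 2 with a pseudocount of 0.1, with TPM or with CPM, since Slc2a3 then passed (fold 2.57 with the pseudocount of 0.1), and 4 where the counting interval had to exclude 1. In STZ against saline the number was 1 and became 2 with a pseudocount of 0.1, 0 with thresholds of 2 and 0.5, and 4 by the counting interval. Between saline and buffer it was 0 and became 1 with a pseudocount of 0.1 or with CPM, and 3 by the counting interval. The other alternatives (TMM, DESeq2 size factors, a mean of at least 10 counts, and, for STZ, saline or both controls averaged in place of buffer) left each number as it was, and so did genes with whole-number counts only, an alternative chosen after the data were seen. Of 120 folds of single genes under alternatives, 118 moved by a factor no larger than the counting error of the gene's count ratio (its interval divided by the ratio), 2 moved by more, and 0 crossed 1. The fold of Slc2a1 in STZ against buffer lay between 0.67 and 0.689, and that of Slc2a5 between 2.12 and 3.9. Shares of the family's summed level from TPM differed by rounding only. TPM rescales all FPKM of a library alike, so this was no separate check. Depth limits what can be said of Slc2a2 and Slc2a4, and the spread between animals is unknown.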
